A study of Mus musculus with 10 samples.

Results

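The genotype comparison was made within the 7 of 10 cutaneous squamous tumors of mice that carried the most *Vim* RNA. *Vim* encodes vimentin, the intermediate filament of mesenchymal cells. A tumor was kept where *Vim* reached 2000 FPKM (fragment counts scaled by transcript length and library size), a limit chosen by its measured level, so the high *Vim* of these tumors is the selection itself and no finding. The 7 tumors were 3 labelled *Ldha*-/- (tumors 2, 4 and 5, called *Ldha*-null below after the label) and 4 labelled wild type (tumors 1, 2, 3 and 4). The kept tumor with the least *Vim* was *Ldha*-null tumor 2 at 4101 FPKM, and the nearest tumor left out was wild-type tumor 5 at 1485 FPKM. *Ldha*-null tumors 1 and 3 were also left out, at 198 and 869 FPKM. *Ldha*-null tumor 1 was rich in skeletal muscle RNA, with the muscle actin *Acta1* at 11245 FPKM against 4.68 to 46.6 FPKM in the other tumors.

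**Figure D1:**
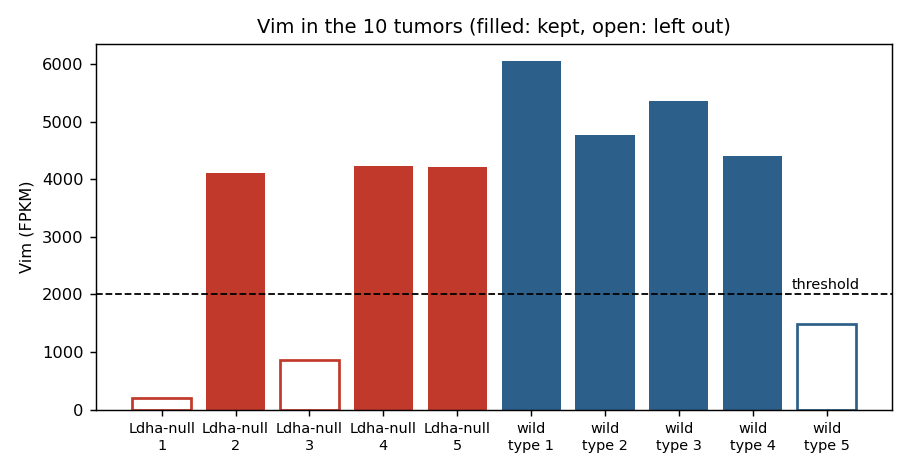
*Vim* level (FPKM, linear axis) in each of the 10 tumors, red for *Ldha*-null and blue for wild type, with filled bars for the 7 tumors kept and open bars for the 3 left out. The dashed line is the threshold of 2000 FPKM; the kept tumors lie between 4101 and 6043 FPKM and none lies near the line.

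Each library came from messenger RNA of a whole fresh tumor of a separate mouse, according to the series design, with no sorting step described, although the labels call the source squamous carcinoma cells. The study induced tumors from hair follicle stem cells on a mixed background, with *K15CrePR* or *Lgr5CreER* driving an oncogene together with loss of *p53*, or with a chemical carcinogen, and in the *Ldha*-null animals the same Cre deleted floxed *Ldha*. Which of these models, what sex and what age the sequenced mice had is not in the labels, and the same Cre can leave a tumor mosaic for the deletion. Total counts were 12969508 to 17694201 in the 7 tumors.

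Squamous carcinoma arises from keratinocytes, which express keratins 5 and 14 and the adhesion protein E-cadherin. Some skin carcinomas take on a spindle form, in which epithelial genes are low and mesenchymal genes such as *Vim*, *Zeb1*, *Twist1* and *Prrx1* are high. Lactate dehydrogenase A, the product of *Ldha*, converts pyruvate to lactate and regenerates the NAD+ that glycolysis needs. Its partner subunit is encoded by *Ldhb*.

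The spindle-like name was checked against these markers. *Krt14* stood at 138 to 2830 FPKM in the 7 tumors, against 28399 FPKM in *Ldha*-null tumor 3 and 28691 in wild-type tumor 5, and *Ldha*-null tumor 1, also left out, had 4195 FPKM. *Cdh1*, which encodes E-cadherin, stood at 3.85 to 17.8 FPKM in the 7 and at 59.7 and 76.0 FPKM in *Ldha*-null tumor 3 and wild-type tumor 5, whereas *Ldha*-null tumor 1, at 14.4 FPKM, lay within the range of the 7. *Zeb1*, a repressor of epithelial genes, stood at 29.1 to 41.1 FPKM in the 7 and at 10.1 to 19.0 FPKM in the 3 left out. *Twist1* and *Prrx1*, mesenchymal transcription factors, stood at 71.5 to 149 FPKM and 35.2 to 50.9 FPKM in the 7, and wild-type tumor 5, which was left out, lay just below them at 65.4 and 32.8 FPKM. Epithelial RNA was thus low but present in every kept tumor, with a wide range between tumors. No histology was given for single tumors, so the 7 are called high-*Vim* tumors here.

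The label of the targeted gene was checked next. *Ldha* (chr7:46841475-46855627, plus strand, mm10) stood at 246, 542 and 324 FPKM in *Ldha*-null tumors 2, 4 and 5, and at 390, 340, 345 and 589 FPKM in the wild-type tumors, 1 to 4 in order. The groups overlapped, with a mean of 371 ± 88.6 FPKM (SEM, n = 3) against 416 ± 58.8 FPKM (SEM, n = 4). The fitted log2 fold change, *Ldha*-null over wild type, was -0.24 with a 95% interval from -1.01 to 0.52. A two-sided exact permutation test of the log2 level gave p = 0.514, where the smallest p that 3 tumors against 4 can give is 0.0571. Counts were summed over the whole gene, so any transcript that lacked only the deleted exons would still count, as would RNA from cells without Cre. The part of either in these values was not tested. With the groups overlapping, the level does not check the labels, and every direction below rests on the label alone. *Ldhb* stood at 10.5 to 23.4 FPKM in the *Ldha*-null tumors and at 11.6 to 26.8 FPKM in the wild-type tumors, a log2 fold change of -0.07 with an interval from -0.92 to 0.78. *Ldhd*, a mitochondrial enzyme that acts on D-lactate, had a log2 fold change of 0.28 with an interval from -1.07 to 1.64. *Ldhc*, the testis form, was at or below 0.0679 FPKM in every kept tumor and was not tested.

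Across the transcriptome, no gene passed the test between genotypes. edgeR's quasi-likelihood test with Benjamini-Hochberg adjustment over 15792 genes called 0 genes (0%) at an adjusted p under 0.05, and the smallest adjusted p was 0.9999. An unadjusted p under 0.05 was reached by 251 genes, against the 790 that 5% of the genes tested would make. Of these, 174 (1.1% of genes tested) were higher and 77 (0.488%) were lower in the *Ldha*-null tumors. DESeq2 on the same counts called 3 of 15738 genes (0.0191%), *Lhx8* and *Nptx1* higher and the pseudogene *RP23-8J15.2* lower, and limma-voom called 0, with 270 at an unadjusted p under 0.05. The groups did not overlap for 177 genes (1.12%) that were higher and 256 genes (1.62%) that were lower in all 3 *Ldha*-null tumors.

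The 7 tumors were a more even set than all 10. The biological coefficient of variation, the spread between tumors of a group beyond counting error, was 41.1% in the 7 tumors and 63.4% in the 10. Over the 15134 genes tested in both sets, the median standard error of the log2 fold change was 0.33 in the 7 tumors and 0.41 in the 10, and it was smaller in the 7 for 69.9% of the genes. In the 7 tumors the 95% interval of the log2 fold change lay within -1 and 1 for 8103 genes (51.3%). For each of these genes taken alone, a 2-fold difference between the labelled groups lay outside the interval. The intervals were not adjusted for the number of genes, so they set no joint bound. For the rest a 2-fold difference was within the interval, so that its absence was not shown.

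When this contrast was examined earlier 6 genes stood out and were selected on it, so their values describe the contrast and do not test it. They are *Nptx2*, *Nptx1*, *Lhx8*, *Nes* and *Plxdc2*, all higher in the *Ldha*-null tumors, and *Steap2*, which was lower. None of the 6 passed edgeR's test over all genes (adjusted p = 0.9999 for each), and for none did the 2 groups overlap.

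*Nptx2* (chr5:144545887-144557478, plus strand) and *Nptx1* (chr11:119538719-119547753, minus strand) encode neuronal pentraxins, secreted proteins that gather glutamate receptors at synapses. *Nptx2* stood at 1.02, 0.968 and 0.356 FPKM in *Ldha*-null tumors 2, 4 and 5, on counts of 45, 41 and 15, and at 0, 0.0534, 0.0604 and 0.0886 FPKM in the 4 wild-type tumors, on counts of 0, 2, 2 and 4. The difference rests on few reads. The log2 fold change was 3.82 ± 0.79 (SE), with an interval from 2.05 to 5.60. *Nptx1* stood at 14.3, 3.11 and 4.05 FPKM in the *Ldha*-null tumors and at 1.56, 1.03, 0.384 and 0.325 FPKM in the wild-type tumors. *Ldha*-null tumor 2 was the highest by a wide margin, and the log2 fold change of 3.07 ± 0.69 dropped to 2.03 without it. DESeq2's adjusted p was 0.00908 for *Nptx1* and 0.0989 for *Nptx2*.

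*Lhx8* (chr3:154306294-154330561, minus strand) encodes a LIM homeodomain transcription factor of the forebrain and of the developing tooth and palate. It stood at 2.04, 5.07 and 10.1 FPKM in the *Ldha*-null tumors and at 0.666, 0.223, 0 and 0.370 FPKM in the wild-type tumors, on counts of 43, 103 and 204 against 14, 4, 0 and 8. The *Ldha*-null tumors themselves spanned a wide range. The log2 fold change was 4.02 ± 0.86, with an interval from 2.08 to 5.96, and DESeq2 gave an adjusted p of 0.00183. *Nes* (chr3:87971078-87980451, plus strand) encodes nestin, an intermediate filament of neural and other progenitor cells and of vessel walls. It stood at 13.5, 26.1 and 9.41 FPKM against 1.82, 7.09, 4.77 and 4.16 FPKM, a log2 fold change of 1.82 ± 0.47. *Ldha*-null tumor 5 lay close to wild-type tumor 2, so the groups were separated by a narrow gap.

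*Plxdc2* (chr2:16356304-16755839, plus strand) encodes a membrane protein with a plexin domain that is found on vessels and stroma. It stood at 13.5, 13.0 and 14.5 FPKM in the *Ldha*-null tumors and at 6.73, 6.28, 8.13 and 6.65 FPKM in the wild-type tumors. Both groups were tight, and the log2 fold change of 0.91 ± 0.19 stayed between 0.85 and 0.98 when any 1 tumor was left out. *Steap2* (chr5:5664831-5694578, minus strand) encodes a metalloreductase that reduces iron and copper. It stood at 19.5, 17.9 and 18.5 FPKM in the *Ldha*-null tumors and at 33.4, 30.2, 33.1 and 24.7 FPKM in the wild-type tumors, a log2 fold change of -0.76 ± 0.18. Leaving out any 1 tumor kept it between -0.82 and -0.70.

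The 3 tumors left out, which took no part in choosing these genes within the high-*Vim* set, followed the order of the kept tumors for some of the genes and not for others. *Nptx2* stood at 0.0676 FPKM and 0.286 FPKM in *Ldha*-null tumors 1 and 3, on either side of wild-type tumor 5 at 0.209 FPKM. *Nptx1* was higher in wild-type tumor 5, at 8.15 FPKM, than in *Ldha*-null tumors 1 and 3, at 0.0881 and 3.01 FPKM. *Lhx8* stood at 0.235 and 0.272 FPKM in those *Ldha*-null tumors and at 0.218 FPKM in wild-type tumor 5, in the order of the kept tumors but all within the range of the kept wild-type tumors. *Nes* had the same order as *Nptx1*, at 10.3 FPKM in wild-type tumor 5 against 4.17 and 5.98 FPKM. *Plxdc2* stood at 9.26 and 19.9 FPKM in *Ldha*-null tumors 1 and 3 and at 8.26 FPKM in wild-type tumor 5, which was the order of the kept tumors. *Steap2* stood at 0.877 and 5.60 FPKM against 9.11 FPKM, again in the order of the kept tumors, but below all of them. With 2 tumors against 1, and with *Ldha*-null tumor 1 rich in skeletal muscle RNA, these values are given without a test.

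**Figure D2:**
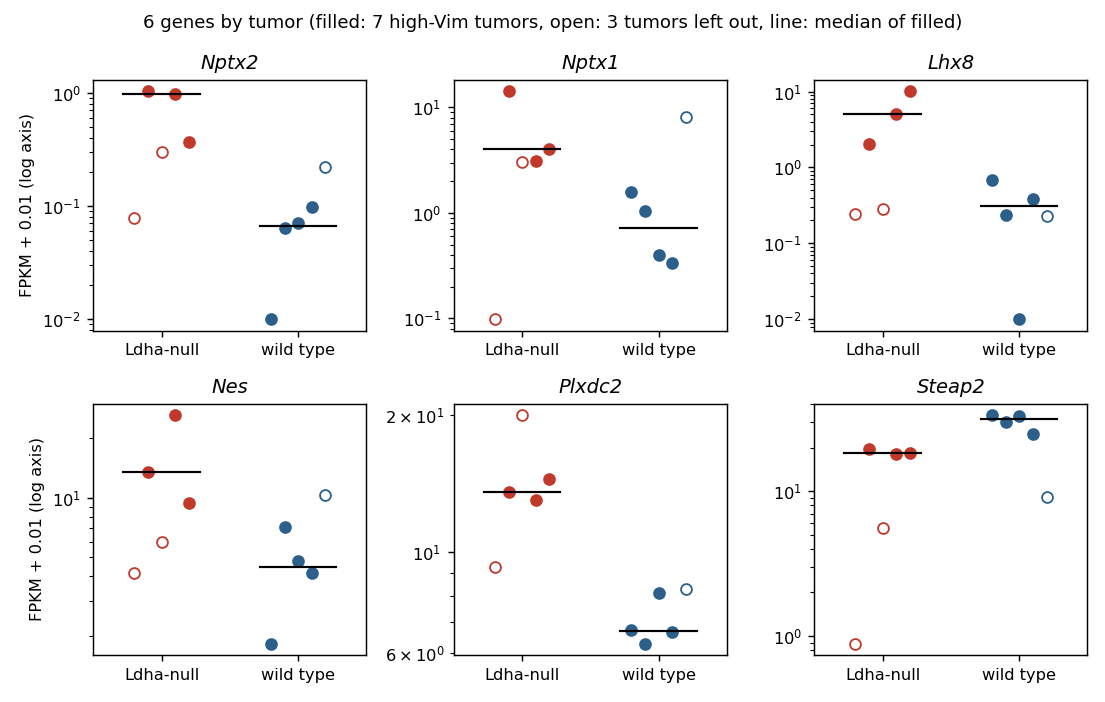
FPKM + 0.01 (log axis, a scale for each gene) of the 6 genes in each tumor, red for *Ldha*-null and blue for wild type; filled points are the 7 high-*Vim* tumors, open points the 3 tumors left out, and the line is the median of the filled points. The filled points of the groups do not overlap for any of the 6 genes, whereas the open points of *Nptx1* and *Nes* lie in the opposite order.

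The families of these 6 genes were read from lists that include the 6, so the selected genes enter the medians and counts below. Over all genes, 1.1% reached an unadjusted p under 0.05 in the higher direction and 0.488% in the lower. Among 12 tested pentraxin and synaptic genes the median log2 fold change was 0.17, beside -0.00 over all genes, and after *Nptx2* and *Nptx1* the smallest p belonged to *Snap25* at -1.57 ± 1.21. Of 9 tested LIM homeobox and LIM-only genes, only *Lhx8* reached an unadjusted p under 0.05, and *Lhx2*, a factor of hair follicle stem cells, had 1.51 ± 1.09. Of 7 neural progenitor genes, *Nes* and *Pax6* reached an unadjusted p under 0.05. *Pax6*, a neural and eye factor, stood at 0.264, 1.2 and 2.76 FPKM in the *Ldha*-null tumors and at 0.431, 0.272, 0.0440 and 0.0967 FPKM in the wild-type tumors, and the groups overlapped. Of 13 plexin-domain and plexin genes, 10 had a positive log2 fold change with a median of 0.21, and *Plxdc2* alone reached an unadjusted p under 0.05. Of 11 STEAP and iron genes, 9 were negative in log2 fold change, at a median of -0.43, and *Steap2* alone reached it. None of the members passed the adjusted test.

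The other genes with the smallest p values were of mixed function. Among those higher in the *Ldha*-null tumors, *Rgma*, a membrane-bound co-receptor for bone morphogenetic proteins, stood at 21.8, 25.4 and 29.0 FPKM in those tumors against 15.2, 13.9, 16.7 and 14.2 FPKM, a log2 fold change of 0.69 ± 0.18 on high counts. *Abca8a*, a lipid transporter, had 2.03 ± 0.52, *Oas1f*, of the oligoadenylate synthetase family, had 2.46 ± 0.68, and *Dapl1*, an epithelial gene, had 1.55 ± 0.43. Among those lower, *Il1rl1*, the receptor for interleukin-33, stood at 23.3, 16.3 and 15.4 FPKM against 56.4, 24.2, 48.3 and 32.1 FPKM. *Ldha*-null tumor 2 lay just below wild-type tumor 2 for this gene, and the log2 fold change of -1.19 ± 0.33 was -0.55 with the epithelial level as a covariate. *Ms4a4a*, a tetraspan protein of macrophages, stood at 57.7, 71.6 and 62.8 FPKM against 89.9, 87.7, 89.1 and 80.4 FPKM. *Fkbp7*, a prolyl isomerase of the endoplasmic reticulum, had -0.57 ± 0.19, *Acot13*, a mitochondrial thioesterase, had -0.60 ± 0.20, and *Tcp11l1* had -1.02 ± 0.35. The groups did not overlap for any of these genes, which were chosen by small p in the same contrast, so this is no separate finding. The remaining genes of the smallest p values that were lower were *RP23-8J15.2* and *mt-Nd6*, described below, and the transcripts *A230059L01Rik* and *3110007F17Rik*, at log2 fold changes of -1.60 and -1.79.

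Among genes of the pathways around lactate none was called. Over 11 lists of glycolysis, lactate, glutamine, the citrate cycle and related stress responses, 139 genes were tested, 0 were called, and 2 (1.44%) reached an unadjusted p under 0.05, where 1.59% of all genes did. Their median log2 fold change was -0.08, 48 were positive and 91 negative, and for 84 of the 139 (60.4%) the interval lay within -1 and 1, where this was so for 51.3% of all genes. Their median standard error was 0.31 in the 7 tumors and 0.52 in the 10.

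Of 18 glycolytic enzymes, 13 were negative in log2 fold change, at a median of -0.20, and none reached an unadjusted p under 0.05. The smallest p belonged to *Eno3*, the muscle enolase, at -0.74 ± 0.38. *Pkm*, pyruvate kinase, stood at 1301, 1144 and 630 FPKM against 769, 710, 602 and 955 FPKM, and the groups overlapped. *Slc2a1*, the main glucose transporter, had -0.13 with an interval from -0.99 to 0.73. Of the lactate carriers, *Slc16a1* had 0.12 with an interval from -0.72 to 0.97, and *Slc16a3* had 0.15 with a wide interval from -1.37 to 1.68. *Mpc2*, a subunit of the mitochondrial pyruvate carrier, stood at 30.3, 28.9 and 30.3 FPKM against 38.3, 38.6, 35.1 and 30.3 FPKM, where wild-type tumor 4 lay among the *Ldha*-null tumors, and the log2 fold change was -0.32 ± 0.17. On the scaled level used for the test its groups did not overlap, as for 1.62% of all genes in that direction.

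Of 16 tested genes of glutamine transport and use, 12 were negative with a median of -0.09, and the interval lay within -1 and 1 for 11. The 27 genes of the citrate cycle and pyruvate oxidation had a median of -0.04, with the interval within -1 and 1 for 22. Of 14 targets of NRF2, the factor that answers oxidative stress, 11 were negative with a median of -0.23, and 2 reached an unadjusted p under 0.05, both lower, where 0.488% of all genes did in that direction. *G6pdx*, the entry enzyme of the pentose phosphate pathway, stood at 78.9, 71.4 and 70.2 FPKM against 83.0, 96.5, 101 and 109 FPKM, a log2 fold change of -0.47 ± 0.19 with no overlap, which was so for 1.62% of all genes in that direction. *Gclm*, of glutathione synthesis, had -0.53 ± 0.23. *Nqo1*, an NRF2 target, was uneven within the wild-type tumors, at 10.3, 8.24, 59.0 and 30.7 FPKM.

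**Figure D3:**
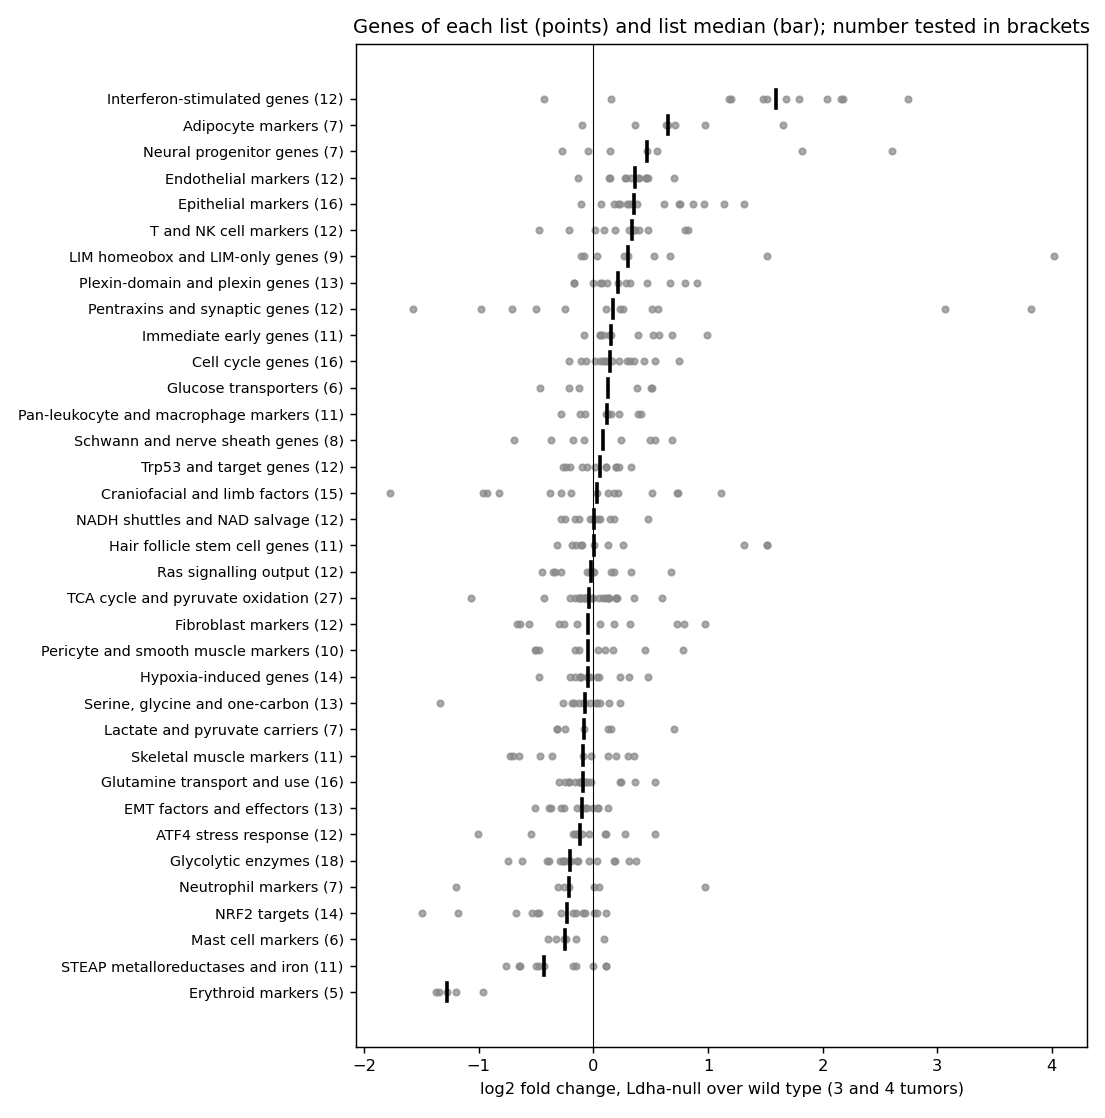
Log2 fold change (*Ldha*-null over wild type, 3 and 4 tumors) of every tested gene of each list with at least 5 tested members, 1 grey point a gene and a black bar for the list's median, with lists ordered by median and without the lists chosen after values were seen. Of the lists drawn, interferon-stimulated genes have the highest median, 1.60, and erythroid markers the lowest, -1.28; the metabolic lists lie close to 0.

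Interferon-stimulated genes had the highest median of the lists, apart from lists drawn up after values were seen. All lists were written with earlier results of these data known, so the counts below describe this list and do not test it. Interferons act through transcription factors that bind a response element in the promoters of genes that defend against viruses. Of the 12 genes listed and tested, 11 had a positive log2 fold change, the median was 1.60, and 8 reached an unadjusted p under 0.05, where 1.1% of all genes did so in that direction. None passed the adjusted test. The groups did not overlap for 1 of the 12, *Ifit3*, where 1.12% of all genes did not in that direction.

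The core of the response element is a pair of GAAA units with 2 bases of any kind between them, searched on both strands in the 250 bases before the start of each gene (RefSeq, GRCm38.p6). It was found in 2.98% of 32851 promoters and in 6 of the 9 listed genes matched in the table: *Isg15*, *Ifit1*, *Ifit3*, *Oas1a*, *Rsad2* and *Cxcl10*. The windows of *Ifit2*, *Irf7* and *Cxcl9* did not hold these letters. Windows are shown for 4 genes with an unadjusted p under 0.05 and a match, 5′ to 3′ in the direction of the gene, with each match in capitals (a pair of TTTC units is the same motif on the other strand), and matches that overlap run together.
*Ifit3* (chr19:34583279-34583528, plus strand): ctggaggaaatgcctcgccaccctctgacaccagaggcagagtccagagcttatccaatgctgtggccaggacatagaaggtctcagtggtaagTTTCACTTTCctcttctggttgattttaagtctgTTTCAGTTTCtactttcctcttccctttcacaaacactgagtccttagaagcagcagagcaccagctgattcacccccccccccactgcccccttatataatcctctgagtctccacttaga
*Ifit1* (chr19:34640639-34640888, plus strand): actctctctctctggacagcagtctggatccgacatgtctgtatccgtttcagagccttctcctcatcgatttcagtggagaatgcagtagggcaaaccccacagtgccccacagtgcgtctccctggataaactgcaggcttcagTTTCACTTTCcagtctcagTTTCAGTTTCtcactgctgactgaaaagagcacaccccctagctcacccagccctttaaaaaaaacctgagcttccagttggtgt
*Oas1a* (chr5:120907526-120907775, minus strand): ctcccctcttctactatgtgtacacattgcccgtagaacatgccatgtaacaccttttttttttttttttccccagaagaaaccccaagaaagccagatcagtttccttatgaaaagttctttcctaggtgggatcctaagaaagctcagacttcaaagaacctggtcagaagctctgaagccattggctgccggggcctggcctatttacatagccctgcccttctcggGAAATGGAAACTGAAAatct
*Rsad2* (chr12:26456453-26456702, minus strand): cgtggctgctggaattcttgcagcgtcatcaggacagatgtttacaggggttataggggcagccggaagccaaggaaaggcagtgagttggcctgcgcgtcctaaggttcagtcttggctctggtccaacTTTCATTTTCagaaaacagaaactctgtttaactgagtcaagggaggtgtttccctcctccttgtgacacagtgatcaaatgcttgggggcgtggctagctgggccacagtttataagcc

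Of these genes, *Ifit3*, which encodes an antiviral protein, stood at 70.3, 10.5 and 34.9 FPKM in *Ldha*-null tumors 2, 4 and 5 and at 0.700, 10.4, 8.09 and 3.17 FPKM in the 4 wild-type tumors. *Ldha*-null tumor 4 lay beside wild-type tumor 2, and the log2 fold change was 2.74 ± 0.83. *Ifit1*, of the same family, stood at 46.0, 8.21 and 38.8 FPKM against 0.657, 11.6, 13.9 and 2.92 FPKM. *Oas1a*, which makes the activator of RNase L, stood at 21.7, 9.01 and 12.3 FPKM against 3.39, 5.35, 9.04 and 6.09 FPKM. *Rsad2*, which encodes viperin, stood at 22.3, 2.91 and 9.88 FPKM against 3.10, 4.09, 4.33 and 1.54 FPKM. For each of the last 3, *Ldha*-null tumor 4 lay within the range of the wild-type tumors. *Irf7*, the regulator of type I interferon, reached 224 FPKM in *Ldha*-null tumor 2, beside 37.0 and 74.3 FPKM in tumors 4 and 5 and 6.74 to 39.4 FPKM in the wild-type tumors. *Mx1*, a GTPase that blocks viral replication, had a log2 fold change of 1.68 ± 0.48.

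The difference in this list moved with single tumors. *Ldha*-null tumor 2 had the highest value of the 7 tumors for 9 of the 12 genes, and wild-type tumor 1 had the lowest for 9. Without *Ldha*-null tumor 2 the median fell to 1.05 and the number with an unadjusted p under 0.05 from 8 to 1, and without wild-type tumor 1 they were 1.49 and 8. With the epithelial level as a covariate they were 1.07 and 2. *Cxcl9*, a chemokine induced mainly by interferon gamma, was at -0.43 ± 1.37 and did not share the direction. Summed leukocyte and macrophage markers were 5286 to 13684 CPM (counts scaled to library size) in the *Ldha*-null tumors and 6115 to 10716 in the wild-type tumors, and their part in the interferon values was tested only as a covariate, under which 7 genes reached an unadjusted p under 0.05.

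**Figure D4:**
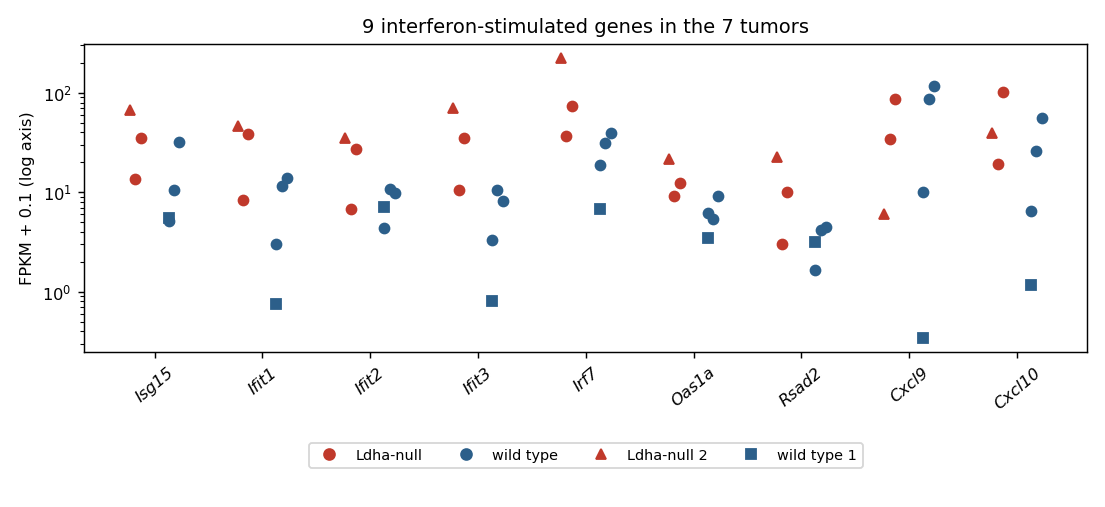
FPKM + 0.1 (log axis) of the 9 interferon-stimulated genes with a promoter window in each of the 7 tumors, red for *Ldha*-null and blue for wild type, with a triangle for *Ldha*-null tumor 2 and a square for wild-type tumor 1. The triangle is the highest point for 7 of these genes and the square the lowest for 6, while the other tumors of the groups mix for most genes.

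Markers of the other cell types a tumor can hold were compared in the same way, and no marker was called. Of 16 epithelial markers 15 had a positive log2 fold change with a median of 0.36, the groups overlapped for all 16, and the summed level was 2654 to 4649 CPM in the *Ldha*-null tumors and 1394 to 6446 in the wild-type tumors. *Krt15*, a keratin of follicle stem cells and the promoter used for 1 of the Cre lines, stood at 26.3, 27.6 and 74.3 FPKM against 27.7, 13.7, 7.55 and 15.3 FPKM. The epithelial median was 1.13 without wild-type tumor 2 and 0.15 without *Ldha*-null tumor 5. Of 12 endothelial markers 11 were positive with a median of 0.36, and 0 reached an unadjusted p under 0.05. The groups did not overlap for 2 of them, *Esam* and *Robo4*, where 1.12% of all genes did not in that direction. The summed endothelial level, scaled to total counts only, was 279 to 345 CPM in the *Ldha*-null tumors and 208 to 265 in the wild-type tumors, without overlap on that scale. In bulk tumors more cells of a type and more RNA per cell cannot be told apart. All 5 erythroid markers were negative, with a median of -1.28, and *Hbb-bs*, an adult globin, stood at 210, 91.9 and 316 FPKM against 933, 614, 127 and 128 FPKM, so the groups overlapped. Without wild-type tumor 1 the erythroid median was -0.54. The median was 0.65 over 7 adipocyte, -0.04 over 12 fibroblast, -0.04 over 10 pericyte and smooth muscle, 0.34 over 12 T and NK cell, 0.10 over 4 B and plasma cell, -0.21 over 7 neutrophil, -0.24 over 6 mast cell, -0.09 over 11 skeletal muscle, -0.04 over 3 melanocyte and 0.08 over 8 Schwann cell genes. Single tumors moved several of these: without *Ldha*-null tumor 5 the adipocyte median was -0.19, the T and NK cell median -0.33, the B and plasma cell median -1.04 and the neutrophil median -1.01. Without wild-type tumor 2 the first 3 were 1.90, 0.92 and 1.58.

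The tumors were chosen on *Vim*, which holds its range narrow beforehand, so no likeness between the genotypes is read from *Vim* or from the list that includes it. Of 13 factors and effectors of epithelial-mesenchymal transition 10 were negative with a median of -0.10, and *Vim* itself had -0.37 ± 0.22, with all 3 *Ldha*-null tumors (4101, 4226 and 4217 FPKM) just below the wild-type tumors (4408 to 6043 FPKM). Of 16 cell cycle genes 13 were positive with a median of 0.14, and *Mki67*, a proliferation marker, had 0.54 ± 0.44. Of 12 genes of Ras output the median was -0.02. The groups did not overlap for 2 feedback inhibitors of the pathway, *Spry4* at 0.67 ± 0.32 and *Dusp6* at 0.33 ± 0.19, as for 1.12% of all genes in that direction, and neither reached an unadjusted p under 0.05. The 12 *Trp53* and target genes had a median of 0.06, the 11 immediate early genes 0.16, the 11 hair follicle stem cell genes 0.00 and the 15 craniofacial and limb factors 0.03.

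Some genes of skin appendages and cornified layers were seen among the genes with low p values and were chosen after their values were seen, so no count over them is a result. *Krt79*, a keratin of the follicle funnel and sebaceous duct, stood at 15.1, 13.1 and 19.3 FPKM in the *Ldha*-null tumors and at 1.44, 8.18, 1.95 and 4.58 FPKM in the wild-type tumors, a log2 fold change of 1.90 ± 0.53. *Awat1*, a wax synthase of sebaceous glands, stood at 2.38, 1.65 and 2.18 FPKM against 0.126, 0.441, 0.333 and 1.02 FPKM. *Lor*, which encodes the cornified envelope protein loricrin, stood at 20.1, 14.9 and 22.4 FPKM against 2.97, 14, 7.93 and 4.57 FPKM. *Lor* reached 626 FPKM in *Ldha*-null tumor 3, which was left out. The part of adjoining skin in these values was not tested.

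Genes of the mitochondrial genome were also noticed after their values were seen. They encode core subunits of the respiratory chain. Of 12 tested, 11 were negative in log2 fold change, at a median of -0.67, and 0 passed the adjusted test. *mt-Co1*, a subunit of cytochrome oxidase, stood at 3977, 5996 and 8280 FPKM in the *Ldha*-null tumors and at 8209, 9643, 13696 and 8144 FPKM in the wild-type tumors. *mt-Nd6*, a subunit of complex I, stood at 964, 1334 and 2036 FPKM against 2025, 2227, 3352 and 2292 FPKM. *Ldha*-null tumor 5 lay next to the wild-type tumors for both genes. On the scaled level used for the test the groups did not overlap for 4 of the 12, where 1.62% of all genes did not in that direction. These were *mt-Co1*, *mt-Nd6*, *mt-Nd5* and *mt-Cytb*. The genes were noticed by their values, so this count is no test. Mitochondrial genes took 1.48%, 2.35% and 3.45% of all counts in *Ldha*-null tumors 2, 4 and 5 and 3.44%, 3.79%, 5.18% and 3.0% in wild-type tumors 1 to 4, so as a share of counts tumor 5 was within the wild-type range. In the tumors left out the order was mixed, with 6.27% and 2.07% in *Ldha*-null tumors 1 and 3 and 1.47% in wild-type tumor 5. *Ldha*-null tumor 1 was the tumor rich in skeletal muscle RNA, and the part of muscle in its share was not tested. RNA quality was not given in the labels, and its part in these shares was not tested.

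The pseudogene that DESeq2 called, *RP23-8J15.2* (chr1:24614885-24615565, minus strand), is a copy of *mt-Co2* in the nuclear genome. In GENCODE vM21 its 681 bases equal those of *mt-Co2* with 0 mismatches, so a read from within either cannot be assigned by its sequence. The first 60 bases, shown because the call rests on this identity, are the same in both.
*RP23-8J15.2*: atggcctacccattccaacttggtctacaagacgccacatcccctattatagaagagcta
*mt-Co2*: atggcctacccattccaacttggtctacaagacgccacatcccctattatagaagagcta
*RP23-8J15.2* stood at 0.766, 0.885 and 1.78 FPKM in *Ldha*-null tumors 2, 4 and 5 and at 19.7, 22.8, 29.9 and 1.24 FPKM in the 4 wild-type tumors. The values fell into a low and a high set that did not follow the labels, since wild-type tumors 4 and 5, the latter at 0.882 FPKM, were low and *Ldha*-null tumors 1 and 3, at 30.2 and 23.5 FPKM, were high. *mt-Co2* itself was listed at 8.05 to 30.6 FPKM in the 7 tumors, and the counts of both genes are therefore uncertain. The neighbouring copies of *mt-Atp6*, *mt-Co3*, *mt-Nd4* and *mt-Nd4l* on chromosome 1 were also without a mismatch.

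Where the genes that separated the groups lay on the chromosomes was looked at after the values were seen. Of the 177 genes that were higher in all 3 *Ldha*-null tumors 30 were on chromosome 9, where 859 of the 15792 tested genes lay, and of the 256 that were lower 1 was. Chromosome 5 held 5 of the higher and 32 of the lower genes, with 978 tested, and chromosome 1 held 7 and 32, with 980 tested. To show which tumors carried this, the level of each gene with a mean log2 CPM over 3 (10259 genes) was set against the median of the other 6 tumors, and the median over the genes of a chromosome was taken in each tumor.

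Whole chromosomes were shifted in single tumors. On chromosome 9 the median was 0.32, 0.05 and 0.16 on the log2 scale in *Ldha*-null tumors 2, 4 and 5 and -0.25, 0.41, -0.39 and -0.30 in wild-type tumors 1 to 4. Wild-type tumor 2 was thus the highest of all, and the groups overlapped for the chromosome as a whole. On chromosome 5 wild-type tumor 1 stood at 0.42, with 84.6% of 667 genes above the other tumors, while the *Ldha*-null tumors stood at -0.09, -0.10 and -0.05, the last beside wild-type tumor 4 at -0.05. On chromosome 8 the same tumor stood at -0.48, with 7.01% of 571 genes above the others. Wild-type tumor 2 stood at -0.41 on chromosome 4 and at -0.44 on chromosome 7, which carries *Ldha*. Wild-type tumor 4 stood at -0.44 on chromosome 14 and at 0.53 on chromosome 15. Of the 140 medians, 12 were beyond 0.3 in size, 10 of them in wild-type and 2 in *Ldha*-null tumors, namely 0.32 on chromosome 9 in tumor 2 and -0.31 on chromosome 15 in tumor 5. DNA was not measured, and no test was made over genes of a chromosome, which share it.

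**Figure D5:**
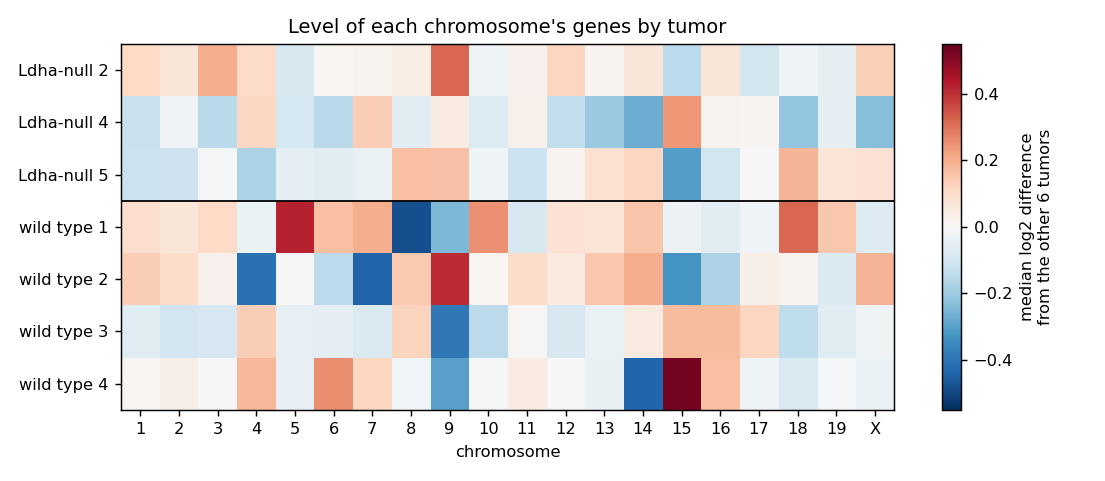
Median log2 difference between a tumor and the median of the other 6 tumors (colour, red above and blue below) over the genes of each autosome and X (columns) in each of the 7 tumors (rows, a line between genotypes). The strongest columns are those of single tumors, such as 0.53 on chromosome 15 in wild-type tumor 4 and -0.48 on chromosome 8 in wild-type tumor 1, and the genotypes do not overlap only on chromosome 5, where *Ldha*-null tumor 5 and wild-type tumor 4 both lie at -0.05.

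At the start of chromosome 9, wild-type tumor 3 carried a block of raised genes. Between *Alkbh8* and *Yap1* (chr9:3335478-8004596, mm10) lay 17 genes over the same level, of which 14 were more than 4-fold above the median of the other 6 tumors in wild-type tumor 3, with a median log2 difference of 3.45. Among the next 20 genes 0 were, with a median of -0.27. Of 404 fixed windows of 5 Mb with at least 8 such genes, 1 had a tumor whose median lay beyond 1 in size. The block crosses a border between windows, so it is not itself 1 of them. Its end was set at *Yap1* after the values were seen. *Yap1*, the transcriptional coactivator restrained by the Hippo pathway, reached 697 FPKM in wild-type tumor 3, while the other 9 tumors of the series had 32.6 to 61.0 FPKM. *Birc2* and *Birc3* encode inhibitors of apoptosis; *Birc2* stood at 294 FPKM against 6.63 to 18.9 FPKM, and *Birc3* at 220 FPKM against 10.3 to 45.9 FPKM. This tumor alone set their genotype values: the log2 fold change of *Yap1* was -2.13, and -0.12 without wild-type tumor 3, and that of *Birc2* was -2.56, and -0.01 without it.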

How the data were processed

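Messenger RNA of 10 tumors was sequenced, and 7 tumors were compared here. Base calling by the authors used CASAVA 1.8, and reads were aligned to mm10 with TopHat2, allowing 2 mismatches. HTSeq (union mode) then gave the authors a fragment count for each of 35275 genes, deposited as whole-number counts. The authors also deposited FPKM, used here to select tumors and to show levels. Versions of TopHat2 and HTSeq and strandedness were not stated in any source read here, so overlapping and antisense genes cannot be told apart.

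The test was that of edgeR 4.0.16, run in R 4.3.3: filterByExpr (minimum count 10, minimum total 15), TMM factors and the quasi-likelihood F-test of 3 *Ldha*-null against 4 wild-type tumors with no covariate. Adjusted p (Benjamini-Hochberg) under 0.05 over all tested genes was a call, and intervals are 95%. Errors of means are SEM and those of log2 fold changes SE. Log2 CPM used a prior count of 2, and groups were said not to overlap on that scale. Replicates were checked for duplicates, and the test was tried on simulated data. Lists were described by counts and medians, without a set test. Alternatives used DESeq2 1.42.0, limma 3.58.1, other factors, filters, covariates and tumors. Total counts of 12969508 to 17694201 limit the precision of genes with few counts.

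The tumors, the 6 genes and the lists were chosen with earlier results of these data known. Named genes were those 6, the 10 smallest p values in each direction since none was called, up to 3 members from every list, taken by p, and fixed genes of lactate and sex. Genes named beyond this rule (the rest of the *Ifit*, *Oas* and mitochondrial genes, skin appendage genes, the label check and chromosome 9) are named after their values were seen. Text searches for promoter motifs used RefSeq windows. A few items are not reported here.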

Additional observations from a re-analysis of the deposited data

Results flagged for a closer look

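In the 4 wild-type tumors, the level of each named gene was examined for a tumor far from the other 3 by Dixon's ratio at its 95% limit. Of 161 groups 7 were so marked, where chance marks about 1 in 20, or 8 of 161; *Birc2* and *RP23-8J15.1* had been chosen after their values were seen.

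*Birc2* stood at 294 FPKM in wild-type tumor 3, in the raised block of chromosome 9, against 10 to 18.1 FPKM in the other wild-type tumors. *RP23-8J15.1*, the chromosome 1 copy of *mt-Co1*, stood at 30.6 FPKM in wild-type tumor 4 against 2.77 to 3.55 FPKM. *RP23-8J15.2*, the copy of *mt-Co2* next to it, was marked in the same tumor for a low value, 1.24 FPKM against 19.7 to 29.9 FPKM. *Slc2a3*, a high-affinity glucose transporter, stood at 25.3 FPKM in wild-type tumor 4 against 3.98 to 5.4 FPKM. *L1cam*, a neural adhesion molecule, stood at 8.62 FPKM in wild-type tumor 2 against 2.38 to 2.60 FPKM. *Ldb2*, a cofactor of LIM homeodomain proteins, stood at 0.869 FPKM in wild-type tumor 3 against 1.23 to 1.38 FPKM. *Mx1* stood at 4.79 FPKM in wild-type tumor 3 against 1.84 to 2.07 FPKM, which places that tumor above *Ldha*-null tumor 4 at 3.99 FPKM.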

How the results depend on the processing

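The count of genes called between genotypes was 0 with edgeR, with 251 at an unadjusted p under 0.05. It was 3 with DESeq2 (317 at an unadjusted p under 0.05) and 0 with each of the other 19 alternatives fitted, which were RLE and upper-quartile factors, no filter, a minimum mean CPM of 5, voom with quality weights, the low-*Vim* tumors as groups of their own, a *Vim* threshold of 1000 FPKM, all 10 tumors, *Xist*, leukocyte or epithelial levels as a covariate, the replicate block and leaving out each tumor in turn (0 to 0). At thresholds of 0.1 and 0.01 it was 0 as well. At 0.1 other fits called 4 genes (DESeq2), 2 (without wild-type tumor 4), 2 (replicate block) and 1 (epithelial covariate). Genes at an unadjusted p under 0.05 ranged from 199 to 604 when a tumor was left out, the highest without wild-type tumor 2, and were 1187 with the epithelial covariate and 601 in all 10 tumors.

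The genotypes share only replicate numbers 2 and 4, which the labels give no meaning. With the number as a block, 0 genes were called and 374 had an unadjusted p under 0.05. In that fit only the tumors numbered 2 and 4 inform the genotype difference, so its count says little. Deviations of same-numbered tumors correlated at 0.03 for number 2 and 0.49 for number 4. These values cannot decide whether the numbers are pairs, and the main test did not use them.

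The log2 fold changes of the 6 selected genes kept their sign under every alternative that tested them, but in all 10 tumors that of *Nptx1* was 0.98. These genes were selected on this contrast, and most alternatives reuse the same tumors, so the kept sign does not test them. Over the named genes, 3 values passed under an alternative, all with DESeq2. Of 312 recomputed list medians 9 moved by more than the spread between tumors. Depth limits *Nptx2*, *Lhx8* and *Pax6*, which rest on few reads.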

Other observations

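Reads of the Y chromosome separated wild-type tumor 1 from the other 6 high-*Vim* tumors. *Ddx3y*, a Y-linked helicase, was at 6.42 FPKM in that tumor, whereas the other 6 had 0 to 0.0848 FPKM. *Xist*, the RNA of the inactive X chromosome, stood at 0.112 FPKM there and at 33.2 to 116 FPKM in the others. Of the tumors left out, *Ldha*-null tumors 1 and 3 had *Ddx3y* at 33.1 and 18.3 FPKM. The sex of the mice is not in the labels.

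The main axes of variation did not follow genotype. The leading component of the log2 levels held 34.3% of the variance in the 7 tumors, and *Ldha*-null tumors 2, 4 and 5 scored -1.14, -13.8 and 50.2 on it, within the range of the wild-type tumors, from -67.6 to 60.4. The second held 23.3%, and the *Ldha*-null tumors again lay on both sides of 0.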
